A study of Mus musculus with 36 samples.

Results

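The DNA replication and S phase genes described here are 41 genes chosen by name, and all of them were found among the 48795 gene identifiers of the count table and passed the filter on low counts, which kept 15901 genes. Stranded RNA sequencing libraries gave their transcript levels in pericyte-like cells from mouse lung; pericytes are the mural cells of capillaries and other small vessels. The cells were grown out of lung digests, depleted of cells with CD31, CD45 or CD326 on their surface, selected for PDGFRβ and cultured on gelatin. Exposure lasted 24 or 6 h and was to injured BALF, uninjured BALF or media only, where BALF is bronchoalveolar lavage fluid, the fluid washed out of lung airways. Reduced-serum medium made up the other part of each mixture, and in media only phosphate-buffered saline stood in for BALF, so the cells of all groups had reduced serum. Each treatment at each time had 3 female and 3 male libraries (n = 6), in 36 libraries altogether. The kind of injury, the strain and age of the mice and the number of animals behind a culture are not given in the labels. Nor do the labels say whether libraries of a group came from separate cultures, so p-values measure the spread between these libraries, which may be technical.

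A dividing cell copies its DNA once, in S phase. Before S phase, CDC6 and CDT1 load the ring-shaped MCM2-7 helicase onto origins of replication. At the G1/S boundary, cyclin E with its kinase phosphorylates RB, which frees E2F transcription factors to switch on many replication genes. CDC45, MCM10 and the GINS complex then activate the helicase, RPA coats the opened strands, the primase and DNA polymerase alpha start each new strand, and the sliding clamp PCNA, loaded by replication factor C, holds DNA polymerases delta and epsilon to their template. FEN1 and LIG1 finish the lagging strand, ribonucleotide reductase, thymidylate synthase and thymidine kinase supply deoxynucleotides, and CAF-1, UHRF1 and SLBP serve the chromatin of the new DNA. Pericytes of the adult lung divide little, but cultured cells proliferate.

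Promoters of 33 of the 41 genes were matched in the RefSeq table for GRCm38.p6, in which a promoter is the 250 bases before and the 50 bases after each listed start of a gene. The 4 words TTTCCCGC, TTTGGCGC, TTTCGCGC and TTTGCCGC, forms of the sequence that E2F factors are known to bind, were searched on both strands. At least 1 of them stood in a promoter of 12 of the 33 genes (36.4%), against 2.6% of the 27025 genes and 2.3% of the 32851 promoters in the table. The share was 32.4% of 34 other replication genes, 44.4% of 18 regulators of the G1/S step and 5.6% of 18 genes of G2 phase and mitosis. CCAAT, which the factor NF-Y is known to bind, was present on either strand in 20 of the 33 (60.6%), against 41.1% of all genes. A match of letters shows neither a bound site nor a cause. The 12 genes were Mcm3, Mcm5, Mcm6, Mcm7, Cdc6, Cdt1, Gins3, Rfc3, Pola1, Pold1, Lig1 and Uhrf1. The 4 of them with the lowest p-value in uninjured BALF at 24 h against 6 h are printed. Lig1 and Pola1 were called in that comparison, and Mcm7 and Cdt1 were not. Cdt1 was called in 0 of 9 comparisons. It lay at 10.65 to 19.13 CPM in uninjured BALF at 24 h, against 13.47 to 25.64 CPM at 6 h. Sequences run 5′ to 3′ on the strand of the gene, with the words in capitals.
Lig1: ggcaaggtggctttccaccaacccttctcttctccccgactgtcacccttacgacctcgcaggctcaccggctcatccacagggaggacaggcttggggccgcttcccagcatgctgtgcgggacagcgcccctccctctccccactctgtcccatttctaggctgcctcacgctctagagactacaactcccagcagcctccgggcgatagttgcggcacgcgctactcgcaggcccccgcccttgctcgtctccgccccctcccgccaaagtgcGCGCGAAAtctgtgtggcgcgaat
Pola1: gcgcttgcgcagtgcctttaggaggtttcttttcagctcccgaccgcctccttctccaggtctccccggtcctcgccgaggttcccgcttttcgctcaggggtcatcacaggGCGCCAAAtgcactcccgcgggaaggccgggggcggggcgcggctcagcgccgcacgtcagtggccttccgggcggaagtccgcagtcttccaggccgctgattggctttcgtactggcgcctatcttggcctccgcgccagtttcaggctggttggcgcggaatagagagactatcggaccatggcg
Mcm7: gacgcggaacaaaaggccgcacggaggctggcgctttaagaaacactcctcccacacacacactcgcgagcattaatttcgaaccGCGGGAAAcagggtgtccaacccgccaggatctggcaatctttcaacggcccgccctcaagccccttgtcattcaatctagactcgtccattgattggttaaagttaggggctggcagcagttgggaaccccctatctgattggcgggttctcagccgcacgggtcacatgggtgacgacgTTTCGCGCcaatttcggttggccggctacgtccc
Cdt1: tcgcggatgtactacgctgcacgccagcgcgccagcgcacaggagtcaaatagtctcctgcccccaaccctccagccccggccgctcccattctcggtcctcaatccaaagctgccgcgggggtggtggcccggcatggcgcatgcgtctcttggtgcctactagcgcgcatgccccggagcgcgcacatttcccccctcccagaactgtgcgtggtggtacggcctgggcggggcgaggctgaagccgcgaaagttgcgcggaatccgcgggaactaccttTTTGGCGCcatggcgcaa
The Lig1 window is chr7:13278576-13278875 on the plus strand and the Pola1 window is chrX:93632106-93632405 on the minus strand. The Mcm7 window is chr5:138171834-138172133 on the minus strand, and the Cdt1 window is chr8:122567765-122568064 on the plus strand. The Mcm7 window holds 2 words and the other windows 1 each. Lig1 has 3 promoters in the RefSeq table and Mcm7 has 2, and for each gene only the 1 printed holds a word. These 2 windows lie inside the annotated genes, which span 13277283 to 13311433 for Lig1 and 138164583 to 138172422 for Mcm7.

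Levels are given as CPM, the counts of a gene per 1000000 counts of its library after scaling by TMM factors. Total counts per library ran from 17134840 to 35991683, and the lowest count of any of the 41 genes in any library was that of Gins1, at 38. Per kilobase of exon, the most abundant of the 41 transcripts were those of Rrm2 at 37.2 CPM, Rpa1 at 32.5 and Pcna at 31.7, as means over all libraries. The least abundant was that of Mcm10, an activator of the helicase, at 1.78 CPM per kilobase. A difference in a bulk level can come from more cells in S phase or from more RNA per cell, and these cannot be told apart here. Transcripts of Pdgfrb, on whose protein the cells were selected, ranged from 256 to 862 CPM and Cspg4 at 14.2 to 270.1 CPM. Kcnj8 and Abcc9, further pericyte markers, were at most at 0.480 and 0.642 CPM, and Epcam, which encodes CD326, was at most at 0.0977 CPM. Of the other markers used for depletion, Ptprc, which encodes CD45, was at 0.248 to 1.62 CPM, and Pecam1, which encodes CD31, ranged from 0.709 to 35.3 CPM.

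The median summed level of the 41 genes was highest in injured BALF at 24 h. There the sum lay between 1838 and 2187 CPM with a median of 2030, against 1470, 1718 and 2153 CPM (lowest, median and highest) in uninjured BALF and 1404, 1582 and 1901 CPM in media only at 24 h. At 6 h the same 3 values were 1355, 1622 and 2520 CPM in injured BALF, 1273, 1529 and 2124 CPM in uninjured BALF and 1580, 1758 and 2156 CPM in media only. At 24 h injured BALF overlapped both other treatments, but its lowest library lay above the median of each, and at 6 h all 3 treatments overlapped widely. Libraries of 1 group differed least in injured BALF at 24 h, where the coefficient of variation had a median of 10.6% over the 41 genes, and most in injured BALF at 6 h, where it had a median of 27.4%.

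**Figure D1:**
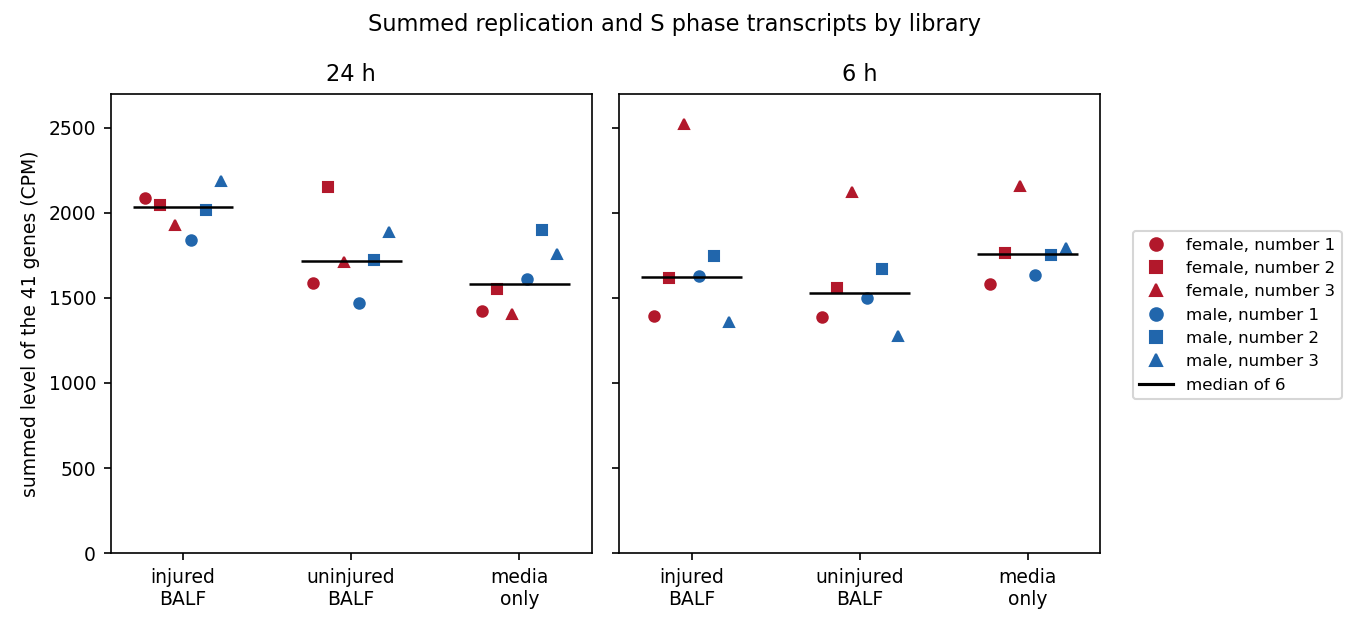
Summed level of the 41 replication genes in CPM (vertical axis) in each library, by treatment, in panels for 24 h and 6 h. Points are libraries, colour gives the sex, the symbol gives the replicate number and the bar is the median of 6. The female libraries numbered 3 lie highest at 6 h in every treatment, up to 2520 CPM.

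2 sets of libraries stood apart at 6 h, and they touch every result at that time. The female library numbered 3 held the highest sum in all 3 treatments, at 2520 CPM in injured BALF, 2124 CPM in uninjured BALF and 2156 CPM in media only. In that library 41, 40 and 38 of the 41 genes lay above the mean of the 3 female libraries of the same treatment and time, itself included. The male library numbered 3 held the lowest sum in both BALF groups, at 1355 CPM with injured BALF and 1273 CPM with uninjured BALF. A list of 22 genes of G2 phase and mitosis summed to 486.9 CPM in the male library numbered 3 of injured BALF and to 432.7 CPM in that of uninjured BALF, against 954.3 to 1470 CPM in the other BALF libraries at 6 h. Summed endothelial markers reached 215 and 214 CPM and mesothelial markers 228 and 255 CPM in the same 2 male libraries, the highest of their groups. The part of these libraries in the results was not tested beyond leaving them out.

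Of the 9 comparisons of treatments or times, injured BALF against media only at 24 h had the most called genes. 13 of the 41 rose and 0 fell (edgeR's quasi-likelihood test, Benjamini-Hochberg adjusted p under 0.05), where 11.5% of all genes tested rose. The median log2 fold change was 0.39 over the 41 genes and -0.01 over all genes, and 40 of the 41 values were positive. Of the MCM helicase 5 of 6 subunits rose, of the dNTP supply 2 of 4 genes, of the primase and polymerases 2 of 6, of the clamp and its loader 1 of 6, of the helicase activators 1 of 6, of lagging strand processing 1 of 2 and of the chromatin group 1 of 4. None of the origin licensing, single-strand binding and G1/S entry genes was called.

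Rrm2, the small subunit of ribonucleotide reductase, made up 90.1, 125.5 and 137.5 CPM in injured BALF at 24 h (lowest, median, highest), against 47.0, 73.5 and 106.8 CPM in media only. 1 injured BALF library, female number 3, lay inside the media range and the others above it. Its log2 fold change was 0.74 ± 0.20 (standard error, n = 6 each, edgeR adjusted p = 0.0073). Tyms, thymidylate synthase, was at 42.8, 48.6 and 59.4 CPM in injured BALF, against 24.0, 30.96 and 33.1 CPM in media only, and the groups did not overlap. It rose by 0.70 ± 0.15 on the log2 scale (edgeR adjusted p = 0.00078). The other dNTP genes were not called: Rrm1, the large reductase subunit, differed by 0.15 ± 0.12 and Tk1, thymidine kinase, by 0.22 ± 0.20.

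Mcm3 lay at 60.5, 72.3 and 79.2 CPM in injured BALF at 24 h, against 37.2, 44.0 and 56.8 CPM in media only. Mcm4 lay at 74.0, 91.5 and 100.8 CPM, against 46.5, 57.2 and 72.2 CPM in media only. Neither helicase subunit overlapped between the treatments, and their log2 fold changes were 0.65 ± 0.18 (edgeR adjusted p = 0.0094) and 0.61 ± 0.15 (edgeR adjusted p = 0.0042). Mcm5, Mcm7 and Mcm6 rose by 0.52, 0.44 and 0.40, and Mcm2 differed by 0.37 ± 0.17 without being called (edgeR adjusted p = 0.11). Mcm10, which helps to activate the helicase, was at 13.5, 16.4 and 18.04 CPM in injured BALF, against 8.84, 10.48 and 12.7 CPM in media only, a rise of 0.59 ± 0.19 with no overlap.

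Among the other enzymes of the fork, Fen1, the flap nuclease of the lagging strand, was at 23.5, 31.2 and 35.5 CPM in injured BALF at 24 h, against 12.1, 21.2 and 27.1 CPM in media only, and rose by 0.58 ± 0.18 with an overlap (edgeR adjusted p = 0.018). Pola1, the catalytic subunit of polymerase alpha, rose by 0.50 ± 0.13 and Pold1, that of polymerase delta, by 0.46 ± 0.15. Pcna rose by 0.39 ± 0.13, at 81.7, 87.8 and 95.3 CPM in injured BALF against 52.3, 68.6 and 76.9 CPM in media only, with no overlap. Chaf1a, a subunit of the chromatin assembly factor CAF-1, rose by 0.39 ± 0.14. The licensing genes Cdc6 and Cdt1 differed by 0.54 ± 0.28 and 0.46 ± 0.17 and were not called (edgeR adjusted p = 0.16 and 0.051). E2f1 was the 1 gene with a negative value, -0.16 ± 0.07, which was not called.

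**Figure D2:**
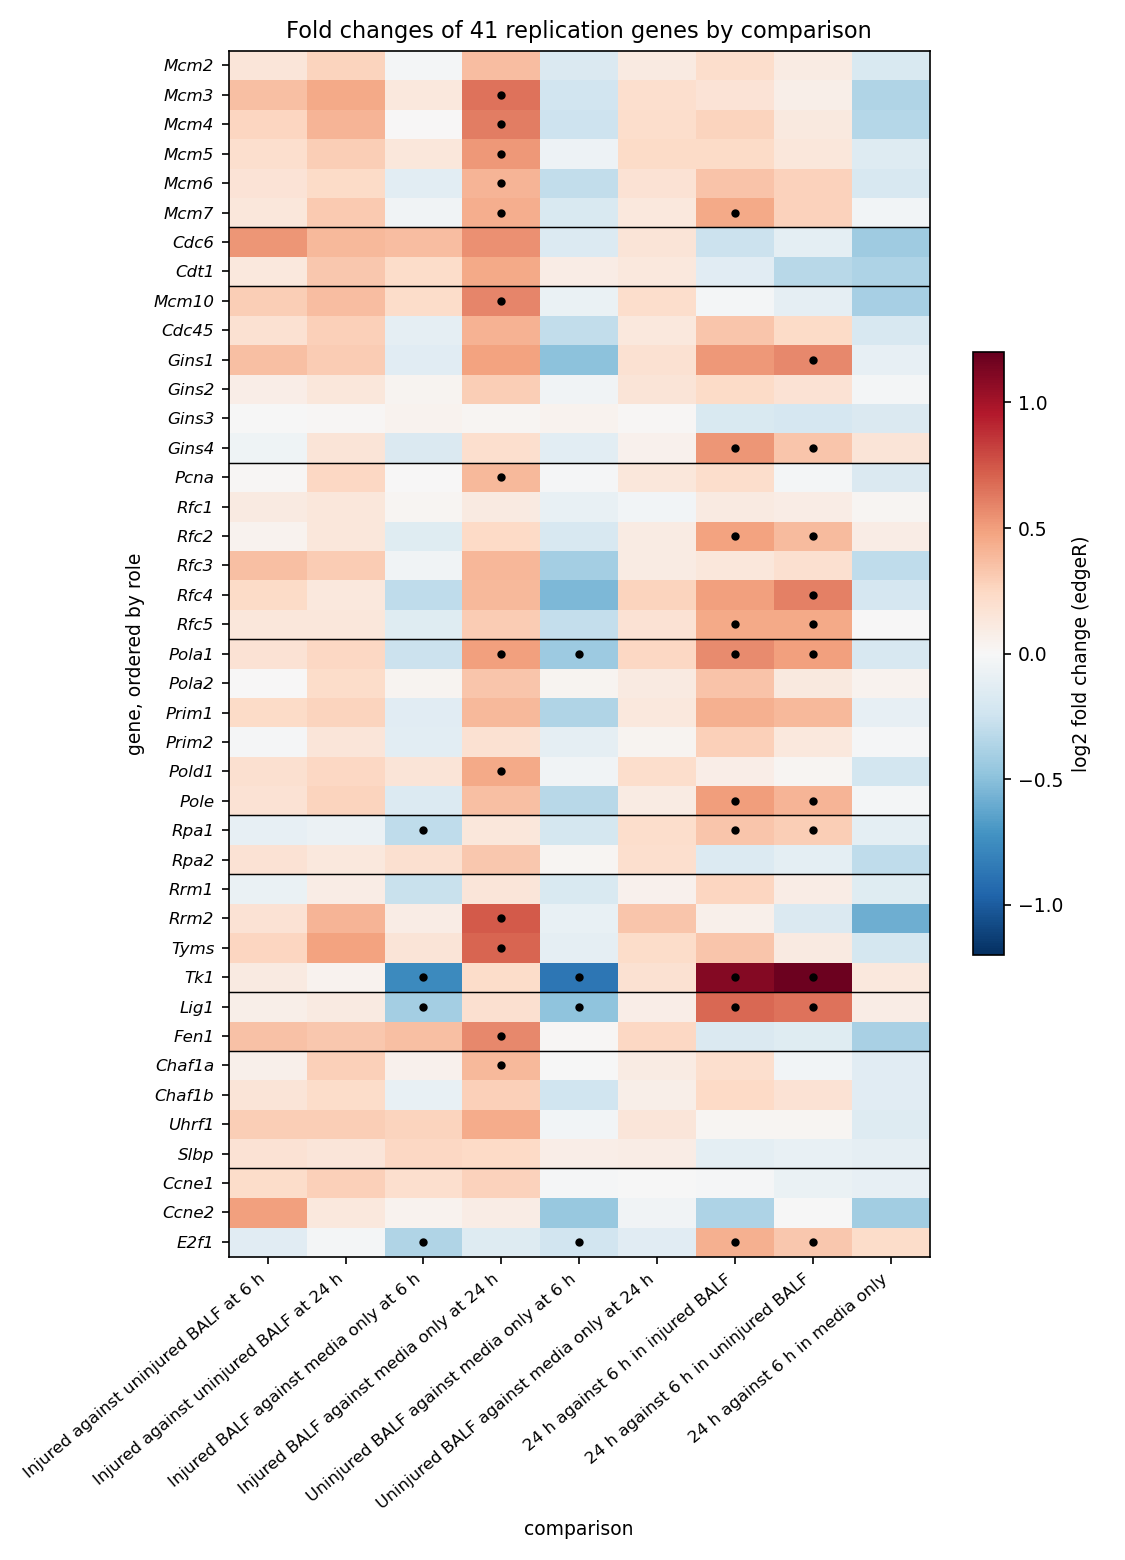
Log2 fold change (colour, red higher in the first-named group) of the 41 genes, ordered by role, in 9 comparisons across. Dots mark genes called at adjusted p under 0.05. In injured BALF against media only at 24 h, 13 genes carry a dot, 5 of them MCM subunits.

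The count of 13 moved with the libraries. It was 6 without the male library numbered 1 of media only at 24 h, 9 without 4 libraries whose description numbers in the labels start differently from the rest (where 9.79% of all genes rose), and 3 when libraries 1 and 2, the closest pair in 10 of 12 groups, were summed (where 6.64% rose). 40 of the 41 values were positive under each of the last 2 settings. With libraries 1 and 2 summed the 3 were Mcm4, Rrm2 and Tyms, so 1 MCM subunit kept its call. Over 12 fits that left out 1 library, the Mcm6 call was lost in 8, Chaf1a in 6 and Pcna and Pold1 in 3 each. The Mcm5 call was lost in 2 and those of Mcm7, Mcm10 and Fen1 in 1 each. Mcm3, Mcm4, Pola1, Rrm2 and Tyms kept theirs in all 12. The libraries of other description numbers were, in media only, female number 2 and male number 3 at 24 h and male number 3 at 6 h. Male number 3 of uninjured BALF at 24 h was the other, and no injured BALF library was among them. Their summed macrophage markers lay at 13.43 to 14.89 CPM, against 34.08 to 88.03 CPM in all other libraries. What this imbalance between treatments adds to the counts was not tested. Cell type markers moved too, in a comparison where 12.2% of all genes fell and 11.5% rose. 5 of 8 tested pericyte markers fell, with sums of 684.9 to 1012 CPM in injured BALF against 1338 to 2576 CPM in media only. 2 of 9 macrophage markers rose, 1 of 10 endothelial markers fell and 1 of 2 tested epithelial markers rose. Of the mesothelial markers 0 of 8 were called. Male number 3 of injured BALF at 24 h held the highest endothelial and mesothelial sums of its treatment and time, at 191.9 and 170.7 CPM. The highest sums in media only at 24 h were 139 and 102.9 CPM. That male library also had the highest sum of the 41 genes in injured BALF at 24 h, 2187 CPM. The part of cell type markers in the result was not tested.

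Uninjured BALF gave no call against media only at 24 h. 0 of the 41 genes were called by edgeR (1 at an unadjusted p under 0.05) and 0 by DESeq2, where 0.868% of all genes tested were called. The median log2 fold change was 0.13, with 37 positive values. The difference between injured and uninjured BALF was not called for any of the 41 genes at 24 h in edgeR (7 at an unadjusted p under 0.05) and for 1 in DESeq2, where 4.42% of all genes were called in edgeR. 39 of the 41 values were positive, with a median of 0.25 and a range of -0.07 to 0.49. The highest was that of Tyms, which lay at 42.8, 48.6 and 59.4 CPM in injured BALF, against 29.3, 34.4 and 41.8 CPM in uninjured BALF, and did not overlap (0.49 ± 0.15, edgeR adjusted p = 0.051). Mcm4 lay at 74.0, 91.5 and 100.8 CPM, against 51.4, 66.7 and 92.3 CPM in uninjured BALF, and the groups overlapped through the female library numbered 2 and the male library numbered 3 of uninjured BALF and the lowest injured library, female number 3 (0.41 ± 0.15, edgeR adjusted p = 0.15). Without the female library numbered 2 of uninjured BALF, 3 genes were called, and without the female library numbered 2 of injured BALF or the male library numbered 3 of uninjured BALF 1 was. Shares of all genes in these 3 fits are not given. The injured, uninjured and media comparisons share libraries and are given side by side only.

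At 6 h none of the 41 genes rose in either BALF against media only (edgeR, 36-library fit). Injured BALF against media only had 4 called genes and all fell, and uninjured BALF against media only likewise had 4, all of which fell. Of all genes tested, 11.4% fell in the first comparison and 7.82% in the second, so 4 of 41 is close to the background in both. Both comparisons share the media libraries. Tk1 was at 9.54, 19.4 and 30.2 CPM in injured BALF and 9.52, 19.3 and 21.7 CPM in uninjured BALF, against 27.9, 31 and 36.7 CPM in media only. It fell by 0.76 ± 0.20 in injured BALF (edgeR adjusted p = 0.0067) and by 0.87 ± 0.21 in uninjured BALF (edgeR adjusted p = 0.0033). The female library numbered 3 is the only injured BALF library inside the media range, and no uninjured BALF library is.

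Lig1, the ligase that seals Okazaki fragments, fell by 0.41 ± 0.15 in injured BALF and by 0.48 ± 0.15 in uninjured BALF (edgeR adjusted p = 0.044 and 0.023). These Lig1 calls were lost in 6 and 5 of 12 fits that left out 1 library. Both were also lost with libraries 1 and 2 summed and without the 4 libraries of other description numbers. E2f1, a transcription factor of the G1/S step, was at 32.2, 34.1 and 41.8 CPM in injured BALF, against 43.2, 44.8 and 47.9 CPM in media only, with no overlap and a fall of 0.36 ± 0.07 (edgeR adjusted p = 0.00032). In uninjured BALF E2f1 was at 34.0, 39.3 and 40.8 CPM and fell by 0.23 ± 0.07. Rpa1, the large subunit of the single-strand binding protein, fell by 0.31 ± 0.09 in injured BALF, and Pola1 fell by 0.43 ± 0.13 in uninjured BALF. Without the female and male libraries numbered 3 of the BALF groups, 11 genes fell in uninjured BALF, where 8.19% of all genes fell. In injured BALF 2 genes fell without the male library numbered 3 of media only. The count in uninjured BALF was 9 without the female library numbered 3 alone, and 2 without any one of 5 other libraries. Shares of all genes are not given for these fits without 1 library.

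The time comparison within BALF gave the largest single changes. At 24 h against 6 h, 10 of the 41 genes rose and 0 fell in injured BALF, where 12.8% of all genes rose, and 11 rose and 0 fell in uninjured BALF, where 15.2% of all genes rose. 9 genes rose in both, which is 90% of the injured list and 81.8% of the uninjured list: E2f1, Gins4, Lig1, Pola1, Pole, Rfc2, Rfc5, Rpa1 and Tk1. How many of all genes rose in both was not counted. Over 12 fits that left out 1 library, the Rfc5 call was lost in 7 in injured and in 6 in uninjured BALF. The Pole call was lost in 1 and 7 and the Rpa1 call in 0 and 2, in the same order. The rest of the 9 genes kept their calls in all 12 fits of both fluids. The difference between the 2 time effects was called for 0 of the 41 genes in edgeR (0 at an unadjusted p under 0.05) and for 0 in DESeq2, where 0.239% of all genes were called. In media only 0 genes were called by edgeR (6 at an unadjusted p under 0.05), where 6.84% of all genes were called, and 2 by DESeq2, 1 in each direction.

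Tk1 changed most. It was at 32.1, 40.9 and 47.3 CPM in injured BALF at 24 h, against 9.54, 19.4 and 30.2 CPM at 6 h, and at 30.7, 38.7 and 51.4 CPM in uninjured BALF at 24 h, against 9.52, 19.3 and 21.7 CPM at 6 h. The times did not overlap in either fluid, and the rises were 1.10 ± 0.21 (edgeR adjusted p = 0.0002) and 1.18 ± 0.21 (edgeR adjusted p = 8.9e-05). In media only Tk1 was at 18.4, 37.6 and 42.4 CPM at 24 h, against 27.9, 31 and 36.7 CPM at 6 h, a difference of 0.13 ± 0.20 that was not called. Lig1, of whose 3 promoters 1 is printed above, was at 37.6, 41.9 and 47.7 CPM in injured BALF at 24 h, against 18.4, 26.0 and 40.3 CPM at 6 h, where the female library numbered 3 gives the overlap. Its rises were 0.69 ± 0.15 in injured and 0.65 ± 0.15 in uninjured BALF (edgeR adjusted p = 0.001 and 0.0015).

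Pola1 rose by 0.56 ± 0.13 in injured and 0.49 ± 0.13 in uninjured BALF. Of the GINS complex, which joins CDC45 at the active helicase, Gins4 rose by 0.53 ± 0.09 in injured and 0.33 ± 0.09 in uninjured BALF, and Gins1 rose by 0.57 ± 0.20 in uninjured BALF. Pole, the catalytic subunit of polymerase epsilon, rose by 0.50 ± 0.15 and 0.40 ± 0.15 in the same order. Of the clamp loader, Rfc2 and Rfc5 rose in both fluids and Rfc4 in uninjured BALF by 0.60 ± 0.20. The level of Rfc4 is uncertain, because its exons overlap those of Eif4a2, which had 2350% of its counts, on the other strand, and the use of strand in counting is not stated. The same holds for Rfc5 beside Wsb2, at 1477% of its counts, for Mcm7 beside Cops6, at 169.7%, and for Ccne2, Cdc45, Fen1, Gins2, Chaf1a and Lig1, whose exons overlap those of Ints8, Ufd1, Tmem258, Gse1, Ubxn6 and Zswim9.

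**Figure D3:**
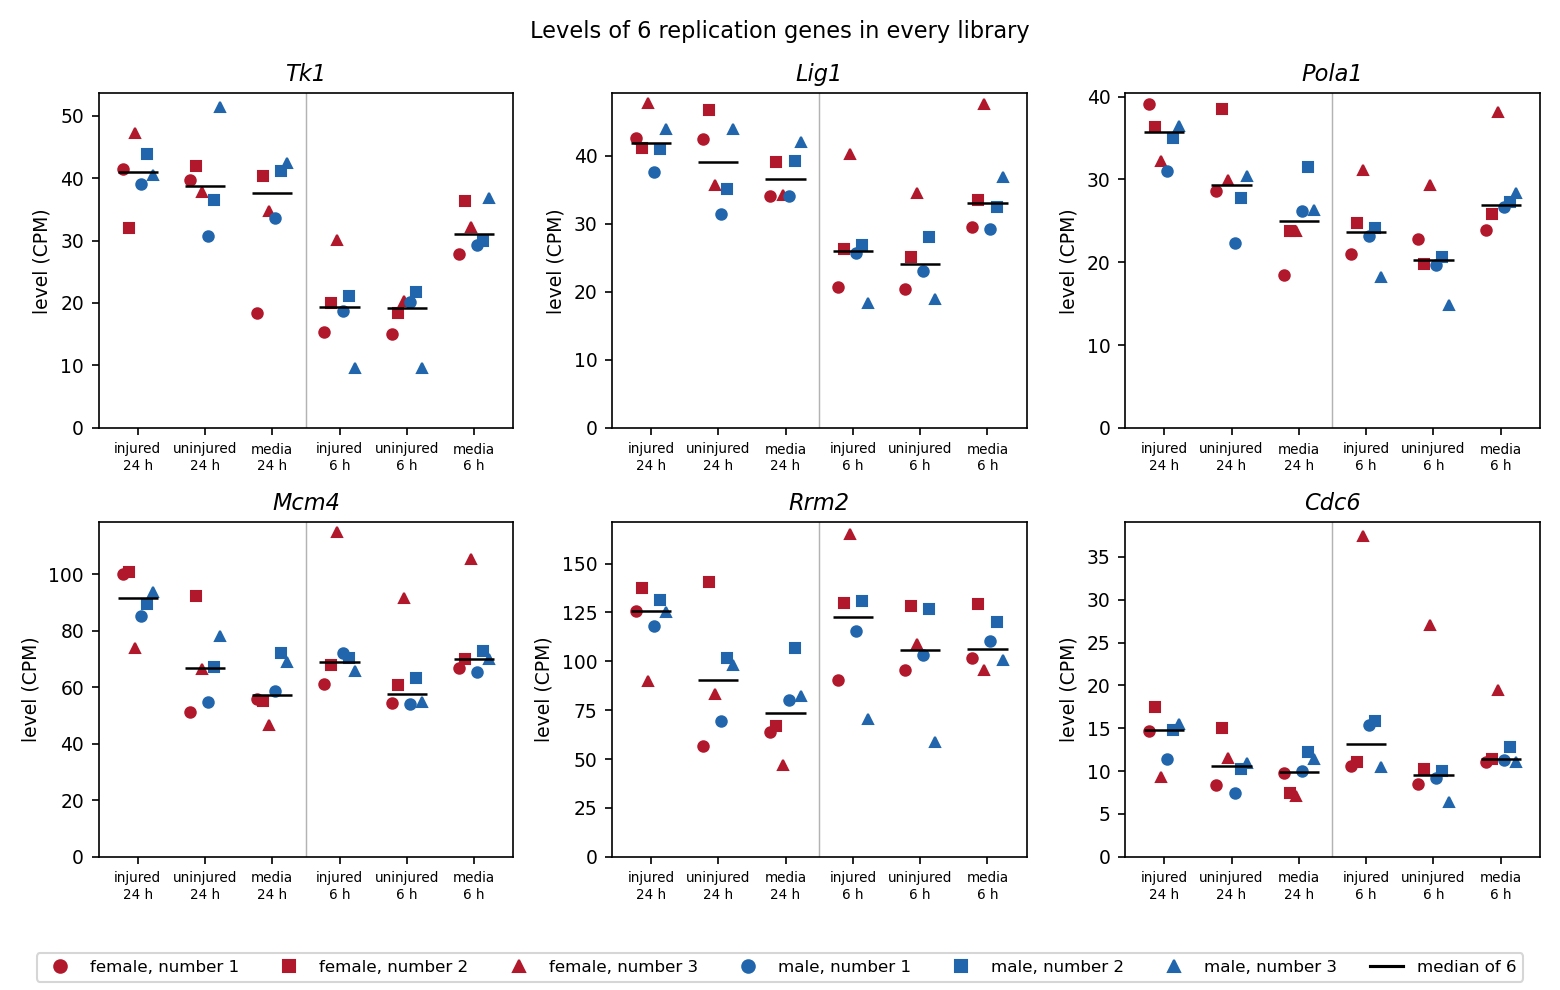
Levels in CPM (vertical axes from 0) of Tk1, Lig1, Pola1, Mcm4, Rrm2 and Cdc6 in every library, with 24 h left of 6 h and injured BALF, uninjured BALF and media only within each time. Tk1 reaches at most 30.2 CPM in the BALF libraries at 6 h, and Mcm4 in injured BALF at 24 h lies between 74.0 and 100.8 CPM. The 6 genes were picked for the plot after their values were seen.

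The time effects moved with single libraries. In injured BALF the count was 24 without the female library numbered 3 at 6 h, and 23 without both libraries numbered 3 in each BALF group at 6 h, where 11.8% of all genes rose. For the fit that gave 24 the share of all genes is not given, so that count has no baseline here. With the replicate number as a block in the 36-library fit 16 genes rose, and the share of all genes in that fit is not given. Same-numbered libraries of injured BALF at 24 h and 6 h deviated together across all genes tested, with correlations of 0.23 to 0.59 over 6 pairs. The summed level was higher at 24 h in 5 of these pairs, with ratios of 1.128 to 1.614. In the female pair numbered 3 it was lower, at 1926 CPM at 24 h against 2520 CPM at 6 h, with 29 of the 41 genes lower. In the block over the compared libraries alone 17 rose, where 21.5% of all genes did. With libraries 1 and 2 summed that block gave 10, where 14.7% of all genes rose, and 8 of these were among the 10 genes of the 36-library fit without a block. In uninjured BALF the count was 6 without the female library numbered 1 at 6 h, 6 without the male library numbered 3 at 24 h and 7 without the male library numbered 3 at 6 h. It was 4 with libraries 1 and 2 summed, where 8.84% of all genes rose, and 6 without the 4 libraries of other description numbers, where 11.7% rose.

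In media only the replication genes leaned down at 24 h against 6 h, with 33 of 41 negative values and a median log2 fold change of -0.16. Rrm2 lay at 47.0, 73.5 and 106.8 CPM at 24 h, against 95.4, 106.1 and 129.5 CPM at 6 h, a difference of -0.59 ± 0.20 that was not called (edgeR adjusted p = 0.065). E2f1 had 0.22 ± 0.07 (edgeR adjusted p = 0.051). The difference between the uninjured BALF effect at 24 h and that at 6 h was called for 1 gene, where 0.692% of all genes rose. That gene was Pola1, at 0.68 ± 0.18 (edgeR adjusted p = 0.042). At 24 h Pola1 lay at 22.3, 29.3 and 38.5 CPM with uninjured BALF, against 18.4, 25.0 and 31.5 CPM with media only. At 6 h it lay at 14.9, 20.2 and 29.3 CPM with uninjured BALF, against 23.9, 27.0 and 38.2 CPM with media only, and the groups overlapped at both times. For injured BALF, a comparison added after the data were seen, Pola1 was again the gene called, at 0.76 ± 0.18 (edgeR adjusted p = 0.02), where 1.15% of all genes rose. Without the female library numbered 3 of injured BALF at 6 h, 8 genes were called in this second difference, and the share of all genes in that fit is not given. The 2 differences share the media libraries. The first was lost in 15 of the 24 fits that left out 1 library and the second in 0 of 24, and neither held with libraries 1 and 2 summed or without the 4 libraries of other description numbers.

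Injured against uninjured BALF at 6 h gave different counts under different fits. In the 36-library fit 0 of the 41 genes were called (2 at an unadjusted p under 0.05, lowest adjusted p = 0.295 by edgeR) and 0 by DESeq2, where 3.43% of all genes were called. The same fit with the replicate number as a block also called 0. A block fitted on the 12 compared libraries alone, chosen after the data were seen, called 19, all of which rose, where 12.2% of all genes rose, and 16 with libraries 1 and 2 summed, where 9.85% of all genes rose. The median log2 fold change was 0.17 in the 36-library fit, with 35 positive values, and 0.16 in the block on compared libraries alone. For Mcm3 the standard errors were 0.18 and 0.05 in these fits. Same-numbered libraries deviated together across all genes tested, with correlations of 0.33 to 0.65.

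Within the pairs the summed level was higher in injured BALF in 6 of 6. It was 1396 against 1385 CPM, 1615 against 1559 CPM and 2520 against 2124 CPM in the female pairs numbered 1 to 3, and 1630 against 1499 CPM, 1747 against 1667 CPM and 1355 against 1273 CPM in the male pairs, each time injured against uninjured BALF. The ratios ran from 1.008 to 1.186. 17 of the 41 genes were higher in injured BALF in all 6 pairs, against 11.4% of all genes tested. Rpa1 was higher in 0 of 6 pairs, E2f1 in 1 and Gins3, Gins4, Pcna and Rrm1 in 2. In the paired fit Cdc6 rose by 0.50 ± 0.09 (edgeR adjusted p = 0.00089), Ccne2, a cyclin E, by 0.49 ± 0.09 (edgeR adjusted p = 0.00093), Gins1 by 0.38 ± 0.13, Rfc3 by 0.36 ± 0.08 and Mcm3 by 0.36 ± 0.05 (edgeR adjusted p = 0.00011). Cdc6 was at 10.5, 13.2 and 37.5 CPM in injured BALF, against 6.36, 9.60 and 27.0 CPM in uninjured BALF, and the groups overlapped widely.

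**Figure D4:**
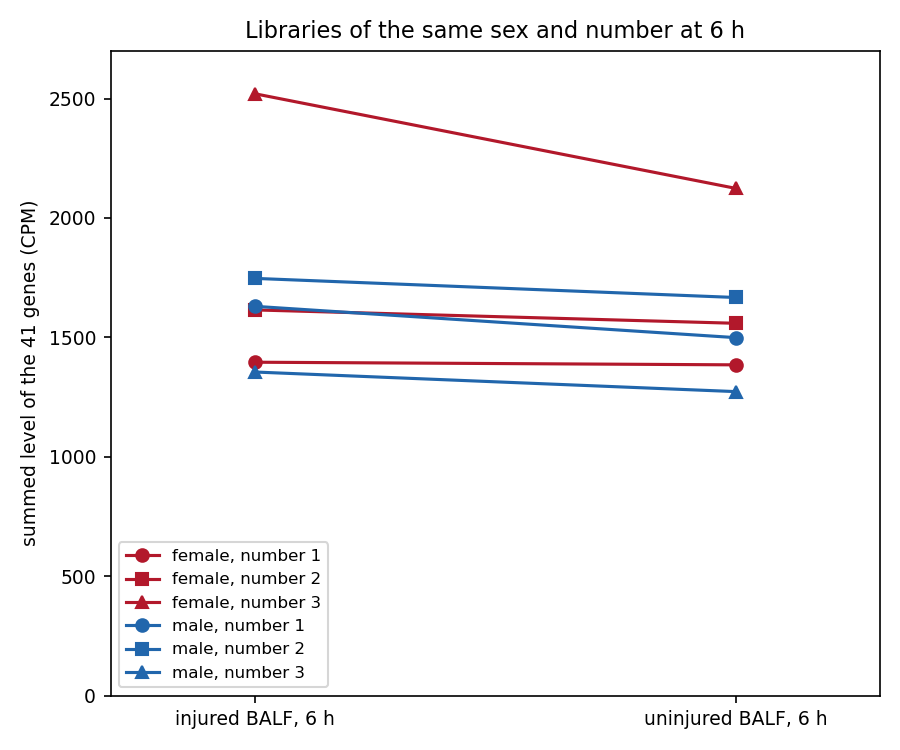
Summed level of the 41 genes in CPM (vertical axis from 0) at 6 h, injured BALF left and uninjured BALF right, with a line joining libraries of the same sex and replicate number. All 6 lines fall to the right, by the most in the female pair numbered 3 (2520 and 2124 CPM).

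Genes beside the 41 were followed in 3 further lists. Of 41 other replication genes, 10 rose and 0 fell in injured BALF against media only at 24 h, where 11.5% of all genes rose and 12.2% fell. Orc1, a subunit of the origin recognition complex, rose by 1.00 ± 0.20 (edgeR adjusted p = 0.00064). Cdc7, the kinase that fires origins, rose by 0.70 ± 0.21 and Dctd, which makes deoxyuridine monophosphate, by 0.64 ± 0.14. At 6 h 6 of these other replication genes rose and 1 fell in injured BALF against media only, where 13.9% of all genes rose and 11.4% fell. Orc1 was at 0.64 ± 0.20 there (edgeR adjusted p = 0.019), and its call was lost without the female library numbered 3 of injured BALF, without the male library numbered 3 of media only, without the BALF libraries numbered 3 and without the 4 libraries of other description numbers (edgeR adjusted p up to 0.103 over the single libraries left out). At 24 h against 6 h, 3 rose and 5 fell in injured BALF, where 12.8% of all genes rose and 14.2% fell. In uninjured BALF 4 rose and 4 fell, where 15.2% of all genes rose and 15.5% fell. Gmnn, geminin, the inhibitor of CDT1, rose by 0.68 ± 0.19 in injured BALF, Dck, deoxycytidine kinase, rose by 0.61 ± 0.15, and Top1, topoisomerase I, fell by 0.50 ± 0.09.

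Of 25 regulators of the G1/S step, 5 rose and 4 fell in injured BALF against media only at 24 h, where 11.5% of all genes rose and 12.2% fell. Cdkn1b, the inhibitor p27, fell by 0.67 ± 0.20, Cdkn1c, the inhibitor p57, fell by 1.01 ± 0.34 and E2f2, an activating E2F, rose by 0.61 ± 0.21. Of 12 fits that left out 1 library, the Cdkn1c call was lost in 7, the E2f2 call in 6 and the Cdkn1b call in 3. The Cdkn1c and E2f2 calls were also lost without the filter on low counts, with libraries 1 and 2 summed and without the 4 libraries of other description numbers, and the Cdkn1b call with libraries 1 and 2 summed. At 6 h Cdkn1b fell by 1.07 ± 0.20 in injured BALF (edgeR adjusted p = 0.00025) and by 0.58 ± 0.20 in uninjured BALF, both against media only, and the second call was lost in 8 of 12 fits that left out 1 library. Cdkn1b lay at 14.8, 21.9 and 26.9 CPM in injured BALF at 6 h, against 35.1, 43.3 and 56.8 CPM in media only, with no overlap. Other regulators went the other way over time. At 24 h against 6 h in injured BALF, the inhibitor genes Cdkn2c and Cdkn2b rose by 0.75 ± 0.21 and 0.72 ± 0.13. E2f5 fell there by 0.70 ± 0.12. In uninjured BALF Cdkn2c rose by 0.78 ± 0.21, and Cdc25a and E2f4 fell by 0.75 ± 0.14 and 0.71 ± 0.16. These calls over time were kept in all 12 fits that left out 1 library.

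Of the G2 and mitosis list, 11 of 22 genes rose in injured BALF and 14 of 22 in uninjured BALF at 24 h against 6 h, and 0 fell. Of all genes tested, 12.8% and 15.2% rose in these comparisons. Ccnb2, a mitotic cyclin, rose by 1.18 ± 0.31 and 1.27 ± 0.31, Nusap1, a spindle protein, by 1.01 ± 0.23 and 1.12 ± 0.23, and Kif20a, a mitotic motor, by 0.94 ± 0.25 and 1.03 ± 0.25, in injured and in uninjured BALF. At 24 h the list had 0 calls in injured BALF against media only (3 at an unadjusted p under 0.05), with a median of 0.18. At 6 h 1 of 22 fell in injured BALF and 4 of 22 in uninjured BALF against media only, where 11.4% and 7.82% of all genes fell. So 1 of 22 is below the share of all genes. Nusap1 was lower by 0.70 ± 0.23 and 0.88 ± 0.23. CCAAT stood in promoters of 88.9% of the 18 matched genes of this list.

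**Figure D5:**
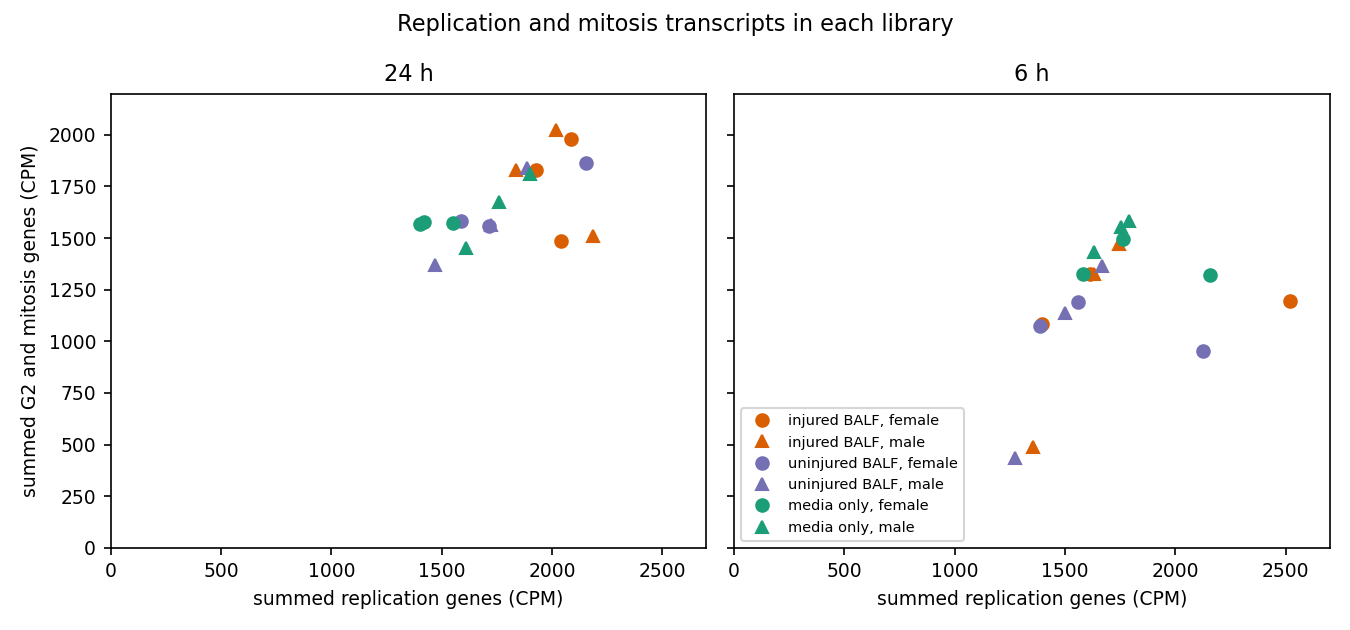
Summed replication genes (horizontal axis, CPM) against summed G2 and mitosis genes (vertical axis, CPM) in each library, at 24 h and 6 h, by treatment (colour) and sex (symbol). 2 male BALF libraries at 6 h lie lowest on the vertical axis, at 486.9 and 432.7 CPM.

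In the 36-library fit without a block, 23 of the 41 genes were called in at least 1 of the 9 comparisons of treatments or times, and 18 in none. The share of all genes called in at least 1 comparison was not counted, so 23 of 41 cannot be read as a trait of the set. In uninjured BALF at 24 h against 6 h alone, 15.2% of all genes rose and 15.5% fell. The 18 were Mcm2, Cdc6, Cdt1, Cdc45, Gins2, Gins3, Rfc1, Rfc3, Pola2, Prim1, Prim2, Rpa2, Rrm1, Uhrf1, Chaf1b, Slbp, Ccne1 and Ccne2. Rrm1 was the most abundant of them, at 236.6, 254.1 and 272.9 CPM in injured BALF at 24 h, against 202.6, 225.8 and 279.3 CPM in media only. Uhrf1, which brings the maintenance methyltransferase to new DNA, was at 49.2, 55.0 and 59.5 CPM, against 34.2, 39.7 and 50.2 CPM in media only (0.44 ± 0.18, edgeR adjusted p = 0.071). The groups overlapped for both genes, for Uhrf1 only at the edge. Ccne1, cyclin E1, differed by 0.28 ± 0.12, Gins2 by 0.29 ± 0.15, Rpa2, the middle subunit of RPA, by 0.33 ± 0.18 and Rfc1, the large subunit of the clamp loader, by 0.11 ± 0.10 in the same comparison.

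Female and male effects were compared in each of the 9 treatment and time comparisons. The difference between the sexes was called for 0 of the 41 genes by edgeR in all 9, with 0 to 2 genes at an unadjusted p under 0.05. DESeq2 was not run on this difference. In injured BALF against media only at 24 h the male effect was smaller than the female one for 40 of the 41 genes, with medians of 0.24 in males and 0.52 in females. In uninjured BALF against media only at 24 h it was again smaller for 40 of 41, with medians of -0.05 in males and 0.31 in females. Over all genes the male effect was smaller for 46.6% and 47.7% in these comparisons, which share the media libraries. At 24 h against 6 h in media only the male effect was larger for 39 of 41, with medians of 0.03 in males and -0.34 in females. Over all genes the male effect was smaller for 54.2% there. The female value includes library number 3 at 6 h, which summed to 2156 CPM against 1580 and 1761 CPM in the other female libraries. Its part was not tested.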

How the data were processed

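The authors deposited a table of whole-number counts per gene for 36 libraries, per the labels made with a TruSeq stranded mRNA kit. STAR 2.5.2b, RSEM 1.2.31, DESeq2 and GRCm38 are named in the submitters' processing notes without roles, so the counts may be rounded RSEM estimates. Of the identifiers 99.1% matched a symbol in GENCODE M21. The test was the quasi-likelihood test of edgeR 4.0.16, run in R 4.3.3 (TMM factors 0.874 to 1.092, its filter on low counts, 15901 genes) with a mean for each of 12 treatment, time and sex groups, which left 24 residual degrees of freedom. A treatment effect is the mean of the female and the male effect, adjusted p-values are Benjamini-Hochberg over all genes tested, and genes under 0.05 were called. Standard errors were derived from each log2 fold change and its F statistic.

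The members and lists were chosen with earlier results of these data known. Genes named with values are the 2 most abundant of each role, the 5 largest rises and falls called in a comparison, genes called in a difference between times, and the 3 largest called changes of each further list; other genes named were chosen after their values were seen. Replicate numbers were taken to pair libraries where all 6 correlations of deviations passed 0.1, which held for injured against uninjured BALF at 6 h and for 24 h against 6 h in injured BALF. Alternatives were DESeq2 1.42.0, RLE scaling, no filter, the replicate block, libraries 1 and 2 summed, and libraries left out. The share of all genes called stands beside only some counts under alternatives, and a count without it has no baseline. The scripts were tested on simulated counts. The block on compared libraries alone, the libraries numbered 3 left out together and the injured BALF difference between times were added after the data were seen.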

Additional observations from a re-analysis of the deposited data

Results flagged for a closer look

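A library was flagged when it stood apart from the other 5 of its treatment and time by Dixon's criterion. This flagged 30 of 126 groups, where chance flags about 1 in 20 independent groups. The 126 were not independent, because the genes and the summed members were measured in the same libraries. The 30 can therefore not be set against that rate.

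Female replicate 3 of injured BALF at 6 h was the highest for the summed members (2520 CPM), Ccne1 (58.6 CPM), Cdc6 (37.5 CPM), Cdt1 (31.4 CPM), Chaf1a (63.2 CPM), Fen1 (52.6 CPM), Mcm4 (114.9 CPM), Mcm6 (111.8 CPM), Rpa2 (38.1 CPM) and Uhrf1 (104.4 CPM). Female replicate 3 of uninjured BALF at 6 h was the highest for Cdc6 (27.0 CPM), Cdt1 (25.6 CPM), Chaf1a (57.8 CPM), Mcm4 (91.6 CPM), Mcm6 (99.6 CPM), Rfc1 (74.1 CPM) and Rpa2 (32.0 CPM). Female replicate 3 of media only at 6 h was the highest for the summed members (2156 CPM), Cdc6 (19.5 CPM), Mcm4 (105.3 CPM), Mcm6 (108.6 CPM), Pola1 (38.2 CPM), Rpa2 (27.5 CPM), Rrm1 (331.9 CPM) and Uhrf1 (57.4 CPM).

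At 24 h male replicate 3 of injured BALF was the highest for Ccne1 (50 CPM) and E2f1 (59.2 CPM), and female replicate 2 of uninjured BALF for Cdt1 (19.1 CPM). Female media only libraries at 24 h were the lowest for Ccne1 (22.8 CPM, replicate 3) and Rpa2 (8.42 CPM, replicate 1).

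Pola1 differed between times by 0.68 on the log2 scale in uninjured BALF against media only and by 0.76 in injured BALF against media only, by the test of the difference itself.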

How the results depend on the processing

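Of 2287 alternative values of 115 fold changes, 0 changed sign, 1905 kept their side of the threshold, 294 lost it and 88 gained it. These 115 were chosen for a low adjusted p in the same data, and most alternatives left out 1 library. A kept sign was therefore likely beforehand and is no test of the direction. Fold changes given above without a low adjusted p, such as those of Rrm1 and Tk1 in injured BALF against media only at 24 h, were not among them. Counts of called members that moved by over 1.5 times were these. For injured against uninjured BALF at 24 h (0), RLE scaling, the replicate block and DESeq2 gave 1 each. With libraries 1 and 2 summed the counts were 2 for injured BALF against media only at 6 h (4), 3 at 24 h (13), 1 for uninjured BALF against media only at 6 h (4), 4 for 24 h against 6 h in uninjured BALF (11) and 0 for both differences between times (1 each). Without the 4 libraries of other description numbers they were 2 for uninjured BALF against media only at 6 h, 6 for 24 h against 6 h in uninjured BALF and 0 for both differences. Without the BALF libraries numbered 3 at 6 h they were 11, 23 in injured BALF over time (10), and 5 and 11 for the uninjured and injured differences. The replicate block gave 16 for 24 h against 6 h in injured BALF, 2 in media only (0) and 3 for each difference; DESeq2 gave 2 in media only and 3 for each difference, and RLE scaling 2 for the uninjured one. On compared libraries alone the block gave 19 for injured against uninjured BALF at 6 h, 16 with libraries 1 and 2 summed, and 17 for 24 h against 6 h in injured BALF, which was 10 with libraries 1 and 2 summed. The cause of these moves was not tested, and the block changed no other call by over 1.5 times.

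Leaving out each library in turn gave 0 to 1 for injured against uninjured BALF at 6 h and 0 to 3 at 24 h, 2 to 5 for injured BALF against media only at 6 h and 6 to 15 at 24 h, 2 to 9 for uninjured BALF against media only at 6 h and 0 to 0 at 24 h. Over time it gave 8 to 24 in injured BALF, 6 to 13 in uninjured BALF and 0 to 0 in media only. The differences between times gave 0 to 0 for injury, 0 to 3 for uninjured BALF and 1 to 8 for injured BALF against media only. The lowest member count was 38, so depth limits Gins1 most.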
